A study of Homo sapiens with 12 samples.

Results

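The genes described here are 9 components of the Hedgehog signaling pathway, namely the receptor PTCH1, the signal transducer SMO, the co-receptors GAS1 and CDON, the decoy receptor HHIP, the transcription factors GLI1, GLI2 and GLI3, and the GLI inhibitor SUFU. They were chosen by name, and their probes were found through the RefSeq accession that the array design gives each probe. All 9 were on the array, among 27522 gene names. RefSeq named 77.5% of the probes, and each other probe kept its own accession as a name. The counts and shares of all genes given below include such names. GLI3 and SMO were picked out by the study itself from these arrays, so their selection was not independent of the values.

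Cells of the human osteosarcoma line U2OS were transfected with 20 nM of a control siRNA or of siRNA against DBP5, GLE1 or IPPK, with 48 h in culture by the methods. The cytosolic fraction gave the RNA for 12 one-colour arrays, 3 for each siRNA. Each of 3 slides carried 1 array of each siRNA, and the replicate number of an array is that of its slide. DBP5 is an RNA helicase of messenger RNA export, GLE1 activates it at the nuclear pore, and IPPK is the kinase that makes the inositol phosphate that GLE1 binds. The methods state that the array experiments were independent, and the adjusted p-values given here measure only the spread between these arrays.

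In the absence of a Hedgehog ligand, PTCH1 holds SMO inactive, SUFU keeps the GLI proteins in check, and GLI3 in particular is cut into a repressor. When a ligand binds PTCH1 with the help of the co-receptors GAS1, CDON and BOC, SMO moves into the primary cilium and full-length GLI2 and GLI3 activate transcription. GLI1, PTCH1 and HHIP are themselves GLI target genes in many tissues, and the pathway is known for its part in skeletal development and in tumors that include osteosarcoma.

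Values are log2 intensities after subtraction of the local background and normalization between arrays, always listed from slide 1 to slide 3. A difference of 1 on this scale is a 2-fold difference. Where a gene had several probes, the one with the highest mean over the arrays stood for it. A ratio is the difference between 2 group means turned back to the linear scale, and its SD is that of the 3 arrays' ratios to the mean of the group compared with. A gene is said to have risen or fallen where the difference passed limma at an adjusted p under 0.05, which was fitted to the 20818 genes that some siRNA group showed well above background on each of its 3 arrays. On single arrays, 70.9% to 77.7% of the probes were well above background. The processed values of the authors follow the median spot intensity (r of 0.9998 or more) rather than the background-subtracted one (0.961 to 0.967), and normexp correction adds a constant, so both make differences of dim probes smaller. An array measures the whole culture, so fewer cells that express a gene and less of its RNA per cell cannot be told apart.

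The siRNA targets were read first. DDX19B, the transcript of DBP5, measured 10.23, 10.15 and 10.15 on the control arrays and 6.25, 6.21 and 6.20 after DBP5 siRNA. GLE1 measured 8.29, 8.32 and 8.26 on the control arrays and 5.40, 4.85 and 4.72 after GLE1 siRNA. IPPK measured 9.32, 9.43 and 9.47 on the control arrays and 6.94, 6.95 and 7.05 after IPPK siRNA. By these probes, the arrays of a target's own siRNA lay below all other arrays. A second IPPK probe, A_33_P3418120, measured 7.98, 8.21 and 8.07 on the control arrays, 7.42, 7.45 and 7.11 after DBP5 siRNA, 9.12, 9.15 and 9.16 after GLE1 siRNA, and 6.99, 7.22 and 7.03 after IPPK siRNA, where the DBP5 and IPPK siRNA arrays overlapped and the GLE1 siRNA arrays were highest. DDX19A, a paralogue of DDX19B, fell to 0.0537 ± 0.00258 of control after DBP5 siRNA (SD, n = 3, adjusted p = 2.04e-11, 3 of 3 below) and to 0.301 ± 0.00413 after IPPK siRNA (SD, n = 3, adjusted p = 2.09e-09, 3 of 3 below), and to 0.541 after GLE1 siRNA (adjusted p = 7.75e-08). The knock-downs were not separate from each other in these genes, since DDX19B was also 0.490 ± 0.0237 of control after GLE1 siRNA (SD, n = 3 arrays, adjusted p = 3.6e-08) and IPPK 0.420 ± 0.0142 after DBP5 siRNA (SD, n = 3 arrays, adjusted p = 7.9e-08), with 3 of 3 arrays below all control arrays in both. The falls of the targets after their own siRNA depended on the setting in size, all past the threshold. DDX19B after DBP5 siRNA was at 0.0643 of control, 0.107 with normexp correction and 0.105 in the processed values of the authors. GLE1 after GLE1 siRNA was at 0.102, and at 0.269 and 0.277 in those settings. IPPK after IPPK siRNA was at 0.1865, and at 0.304 with the mean of its probes. Smaller falls depended on the setting for their call or direction. That of DDX19B after IPPK siRNA (0.874, adjusted p = 0.00776) was lost with normexp correction (0.102) and in the processed values of the authors (0.0564), and that of GLE1 after IPPK siRNA (0.717, 0.0199) without the second control array (0.0539) or the first IPPK siRNA array (0.0646). IPPK after GLE1 siRNA (0.821, 0.00213) turned into a rise with the mean of its probes (log2 difference 0.39, 0.00052).

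All 9 Hedgehog genes were well above background on all 12 arrays by their brightest probe. They were covered by 15 probes, of which 13 were well above background on all 12 arrays, and 6 of the genes had 1 probe. The 3 comparisons with control share the control arrays, so they are given side by side and not as repeats of each other. After DBP5 siRNA, 3 of 9 genes fell (27.5% of all genes tested) and 4 of 9 rose (26.8% of all genes). Both counts were too small to set apart from those shares. After GLE1 siRNA, 8 of 9 fell (31.5% of all genes) and 0 of 9 rose (30.6% of all genes). All of these calls were thus in 1 direction, where all genes were split almost evenly. The falls of SMO and GLI3 are not independent of the choice of genes, since the study picked both from these arrays as lower after GLE1 siRNA. Those of GAS1, GLI2 and SUFU depended on the setting or the probe, as given below. At an unadjusted p under 0.05 the count of rises was also 0, by limma and by the paired test of the methods. After IPPK siRNA, 6 of 9 fell (28% of all genes) and 3 of 9 rose (27.3% of all genes), the falls being above the share of all genes and the rises near it. The median size of the log2 difference from control, whatever its direction, was 0.56 for the 9 genes and 0.30 for all genes after DBP5 siRNA, 0.78 and 0.38 after GLE1 siRNA, and 0.70 and 0.31 after IPPK siRNA.

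**Figure D1:**
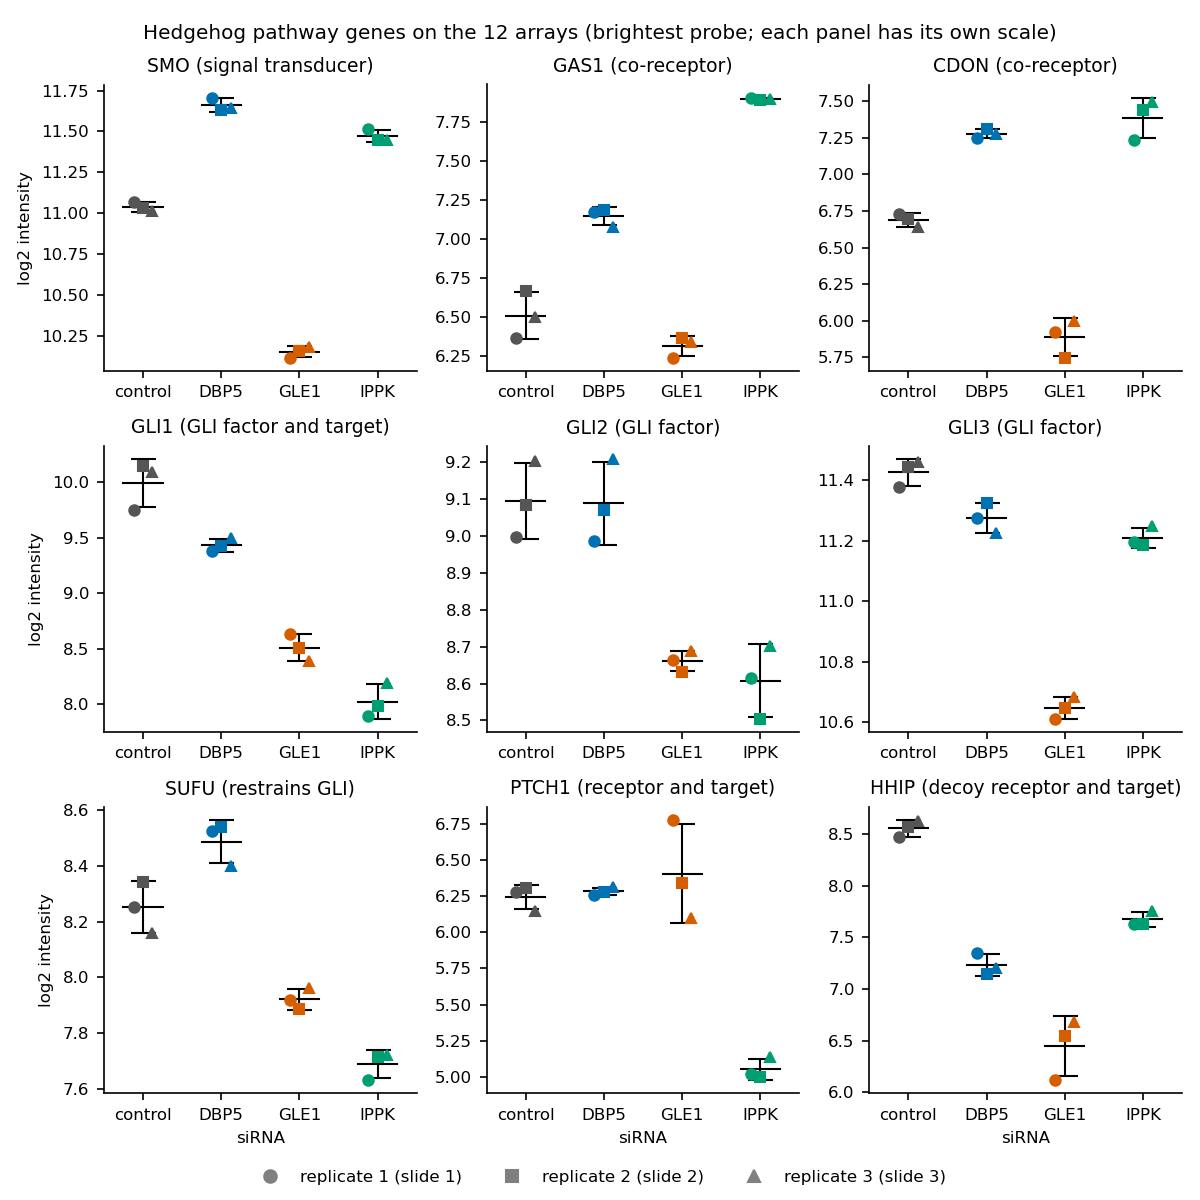
Log2 intensity of the 9 Hedgehog pathway genes on each of the 12 arrays, by siRNA, with a panel and a scale for each gene. Symbols are arrays, marked by slide, and bars are the mean and SD of 3 arrays. SMO, GAS1 and CDON were high after DBP5 and IPPK siRNA, while HHIP and GLI1 were highest on the control arrays and PTCH1 was low on the 3 IPPK siRNA arrays alone.

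SMO is the membrane protein that carries the signal inward. SMO measured 11.07, 11.03 and 11.01 on the control arrays, 11.71, 11.63 and 11.64 after DBP5 siRNA, 10.12, 10.16 and 10.18 after GLE1 siRNA, and 11.51, 11.45 and 11.45 after IPPK siRNA. The 4 groups did not overlap, with GLE1 siRNA lowest, then control, then IPPK siRNA and DBP5 siRNA highest. All neighbours in this order differed by the test, the closest being DBP5 and IPPK siRNA with a ratio of 1.14 ± 0.0334 (SD, n = 3, adjusted p = 0.00501, 3 of 3 arrays above). Within the slides, SMO after GLE1 siRNA was lower than control by log2 differences of -0.95, -0.87 and -0.83. The difference from DBP5 siRNA was larger than that from control, with GLE1 siRNA at 0.351 ± 0.00807 of DBP5 siRNA (SD, n = 3, adjusted p = 3.44e-09, 3 of 3 arrays below).

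CDON is a cell surface protein that binds the ligand together with PTCH1. CDON measured 6.73, 6.70 and 6.64 on the control arrays, 7.25, 7.31 and 7.27 after DBP5 siRNA, 5.92, 5.75 and 5.997 after GLE1 siRNA, and 7.24, 7.44 and 7.50 after IPPK siRNA. The order of the groups resembled that of SMO, except that the arrays of DBP5 and IPPK siRNA overlapped. CDON rose to 1.505 ± 0.0334 of control after DBP5 siRNA (SD, n = 3, adjusted p = 0.000107) and to 1.62 ± 0.151 after IPPK siRNA (SD, n = 3, adjusted p = 2.97e-05), with 3 of 3 arrays above all control arrays in both. After GLE1 siRNA it fell to 0.574 ± 0.0501 of control (SD, n = 3, adjusted p = 7.39e-06, 3 of 3 arrays below). The rise after IPPK siRNA was not called by the paired test of the methods (adjusted p = 0.055). DBP5 and IPPK siRNA did not differ by the test in CDON (log2 difference -0.11, 95% interval -0.29 to 0.07, adjusted p = 0.291).

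GAS1 is a co-receptor held to the membrane by a lipid anchor. GAS1 measured 6.36, 6.66 and 6.50 on the control arrays, 7.17, 7.19 and 7.08 after DBP5 siRNA, 6.24, 6.36 and 6.34 after GLE1 siRNA, and 7.90, 7.89 and 7.90 after IPPK siRNA. The IPPK siRNA arrays were highest and lay close together, the DBP5 siRNA arrays came next, and the control and GLE1 siRNA arrays overlapped. The rise after IPPK siRNA, to 2.62 ± 0.0140 of control (SD, n = 3, adjusted p = 9.67e-08, 3 of 3 arrays above), was the largest rise from control among the 9 genes. After DBP5 siRNA GAS1 rose to 1.55 ± 0.0628 of control (SD, n = 3, adjusted p = 3.15e-05, 3 of 3 arrays above), which the paired test of the methods did not call (0.0606). After GLE1 siRNA it was 0.874 ± 0.0396 of control (SD, n = 3, adjusted p = 0.0394), with 2 of 3 arrays below all control arrays. This small fall rested on single arrays. Without the second control array the log2 difference was -0.12 (adjusted p = 0.146), and without control array 3 it was -0.20 (0.0752). It also missed the threshold without GLE1 siRNA array 1 (-0.16, 0.129), 2 (-0.22, 0.0507) or 3 (-0.21, 0.0657) and, through the shared estimate of the spread, without IPPK siRNA array 1 (0.05), 2 (0.0546) or 3 (0.0546). With normexp background correction the log2 difference was -0.12 (adjusted p = 0.0673), with the processed values of the authors -0.12 (0.0634), without a filter on dim probes -0.19 (0.0597) and with the 6 arrays of the comparison alone -0.19 (0.102), and the paired test gave 0.108.

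GLI1 is an activator and at the same time the target gene most often read as a measure of pathway output. GLI1 measured 9.75, 10.15 and 10.09 on the control arrays, 9.38, 9.43 and 9.49 after DBP5 siRNA, 8.63, 8.502 and 8.39 after GLE1 siRNA, and 7.89, 7.98 and 8.19 after IPPK siRNA. The 4 groups did not overlap, and IPPK siRNA was lowest. All pairs of groups differed by limma. The paired test of the methods did not call DBP5 siRNA against control (adjusted p = 0.0815) or GLE1 against IPPK siRNA (0.138). The smallest of the differences between knock-downs was that between GLE1 and IPPK siRNA, a ratio of 1.40 ± 0.118 (SD, n = 3, adjusted p = 0.00393, 3 of 3 arrays above). On slides 1, 2 and 3 this log2 difference was 0.74, 0.52 and 0.19, all of the same direction but of unequal size. GLI1 after DBP5 siRNA was 2.66 ± 0.110 of that after IPPK siRNA (SD, n = 3, adjusted p = 3.68e-06, 3 of 3 arrays above).

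GLI2 is the main activator of the pathway in the mouse embryo. GLI2 measured 8.998, 9.08 and 9.20 on the control arrays, 8.99, 9.07 and 9.21 after DBP5 siRNA, 8.66, 8.63 and 8.69 after GLE1 siRNA, and 8.62, 8.504 and 8.70 after IPPK siRNA. Control and DBP5 siRNA overlapped almost wholly, as did GLE1 and IPPK siRNA at a lower level. GLI2 fell to 0.740 ± 0.0143 of control after GLE1 siRNA (SD, n = 3, adjusted p = 0.000518) and to 0.713 ± 0.0486 after IPPK siRNA (SD, n = 3, adjusted p = 0.000288), with 3 of 3 arrays below all control arrays in both. The difference after DBP5 siRNA did not pass (log2 difference -0.0068, 95% interval -0.18 to 0.16, adjusted p = 0.954), and neither did that between GLE1 and IPPK siRNA (0.05, 95% interval -0.12 to 0.22, adjusted p = 0.581). With the mean of its 4 probes, the log2 difference of GLI2 after GLE1 siRNA was -0.16 (adjusted p = 0.147).

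GLI3 is the main source of the GLI repressor. GLI3 measured 11.38, 11.44 and 11.46 on the control arrays, 11.27, 11.32 and 11.23 after DBP5 siRNA, 10.61, 10.65 and 10.68 after GLE1 siRNA, and 11.20, 11.18 and 11.25 after IPPK siRNA. The control arrays were highest, the GLE1 siRNA arrays stood apart below all others, and the DBP5 and IPPK siRNA arrays overlapped in between. The falls after DBP5 siRNA, to 0.900 ± 0.0310 of control (SD, n = 3, adjusted p = 0.0184), and after IPPK siRNA, to 0.860 ± 0.0200 (SD, n = 3, adjusted p = 0.0025), were small, with 3 of 3 arrays below all control arrays in both. The first of them missed the threshold without the second control array (log2 difference -0.14, adjusted p = 0.0505), without control array 3 (-0.14, 0.0627), without the third DBP5 siRNA array (-0.13, 0.0631) and with the 6 arrays of the comparison alone (-0.15, 0.0852), and the paired test of the methods did not call it (0.134). GLI3 after GLE1 siRNA was also below DBP5 siRNA, at 0.647 ± 0.0164 (SD, n = 3, adjusted p = 1.31e-06), and below IPPK siRNA, at 0.677 ± 0.0172 (SD, n = 3, adjusted p = 2.31e-06), with 3 of 3 arrays below in both.

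SUFU binds GLI proteins and restrains them. The brightest of its 3 probes, A_33_P3333030 (NM_001178133), measured 8.25, 8.34 and 8.16 on the control arrays, 8.52, 8.54 and 8.40 after DBP5 siRNA, 7.92, 7.89 and 7.96 after GLE1 siRNA, and 7.63, 7.72 and 7.72 after IPPK siRNA. The groups did not overlap, with DBP5 siRNA highest and IPPK siRNA lowest. By this probe SUFU rose to 1.18 ± 0.0621 of control after DBP5 siRNA (SD, n = 3, adjusted p = 0.00772, 3 of 3 arrays above), fell to 0.796 ± 0.0209 after GLE1 siRNA (SD, n = 3, adjusted p = 0.00076, 3 of 3 below) and fell to 0.678 ± 0.0234 after IPPK siRNA (SD, n = 3, adjusted p = 2.12e-05, 3 of 3 below). The fall after GLE1 siRNA was not called by the paired test of the methods (0.0826).

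A second SUFU probe, A_23_P425304 (NM_016169), went the other way after GLE1 siRNA. It measured 6.99, 6.84 and 6.98 on the control arrays, 7.36, 7.60 and 7.59 after DBP5 siRNA, 7.33, 7.18 and 7.21 after GLE1 siRNA, and 6.99, 7.12 and 7.11 after IPPK siRNA. All DBP5 and GLE1 siRNA arrays lay above all control arrays, and the IPPK siRNA arrays overlapped with control. In the fit over all probes it rose to 1.49 ± 0.137 of control after DBP5 siRNA (SD, n = 3, adjusted p = 0.000126, 3 of 3 above) and to 1.23 ± 0.0692 after GLE1 siRNA (SD, n = 3, adjusted p = 0.00692, 3 of 3 above). After IPPK siRNA its ratio of 1.10 ± 0.0556 did not pass (SD, n = 3, adjusted p = 0.185, 2 of 3 above). The third SUFU probe, A_24_P149902, passed in none of the 3 comparisons with control, with ratios of 0.906, 0.987 and 0.993 and adjusted p-values of 0.419, 0.919 and 0.962. The rise after DBP5 siRNA was thus shared by 2 of 3 probes, and the falls of SUFU after GLE1 and IPPK siRNA were those of 1 probe of 3. With the mean of the probes, the log2 difference after GLE1 siRNA was -0.015 (adjusted p = 0.881) and that after IPPK siRNA -0.15 (adjusted p = 0.117).

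**Figure D2:**
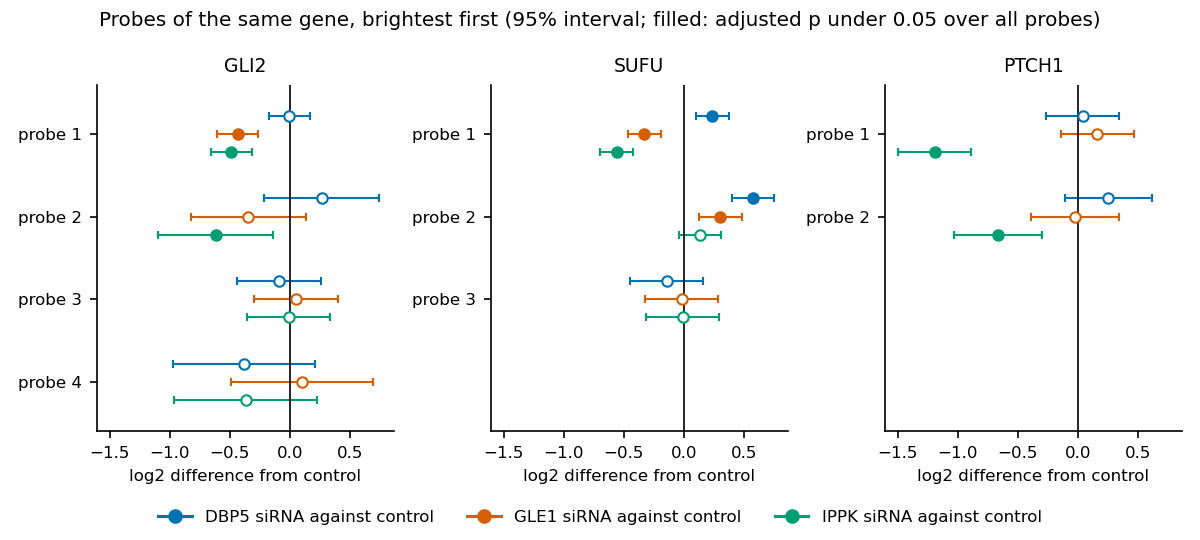
Log2 difference from control for each probe of GLI2, SUFU and PTCH1, from the brightest probe downward, with 95% intervals and filled symbols where the adjusted p over all probes was under 0.05. The brightest SUFU probe lies at -0.33 after GLE1 siRNA and the second at 0.30, while both PTCH1 probes lie below 0 after IPPK siRNA.

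Of the 4 GLI2 probes, the second brightest, A_33_P3358462, fell to 0.651 ± 0.0376 of control after IPPK siRNA (SD, n = 3, adjusted p = 0.0317, 3 of 3 below), like the brightest. After GLE1 siRNA its ratio of 0.787 ± 0.0288 did not pass (SD, n = 3, adjusted p = 0.194, 3 of 3 below). The other two GLI2 probes passed in no comparison with control, and the dimmest, A_33_P3358469, was well above background on 1 of 3 IPPK siRNA arrays.

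PTCH1 is both the receptor that restrains SMO and a GLI target gene. Its brighter probe, A_24_P106910, measured 6.28, 6.31 and 6.15 on the control arrays, 6.26, 6.28 and 6.31 after DBP5 siRNA, 6.78, 6.34 and 6.10 after GLE1 siRNA, and 5.02, 5.0 and 5.14 after IPPK siRNA. The IPPK siRNA arrays lay below all others, the other groups overlapped, and the first GLE1 siRNA array was the highest of the 12. PTCH1 fell to 0.437 ± 0.0228 of control after IPPK siRNA (SD, n = 3, adjusted p = 3.11e-05, 3 of 3 arrays below). The size of this fall depended on the background, with a ratio of 0.693 under normexp correction and 0.722 in the processed values of the authors, both past the threshold. The second PTCH1 probe, A_33_P3415410, was at 0.631 ± 0.110 of control after IPPK siRNA (SD, n = 3, adjusted p = 0.00556, 3 of 3 below) and was well above background on 2 of 3 IPPK siRNA arrays.

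PTCH1 did not pass after DBP5 siRNA (log2 difference 0.04, 95% interval -0.27 to 0.35, adjusted p = 0.846) or after GLE1 siRNA (0.16, 95% interval -0.14 to 0.47, adjusted p = 0.344). The first GLE1 siRNA array decided the second of these values: without it the log2 difference was -0.025 (adjusted p = 0.829), and without GLE1 siRNA array 3 it was 0.31 (adjusted p = 0.0393).

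HHIP binds the ligand at the cell surface and withholds it from PTCH1, and it is a GLI target gene too. HHIP measured 8.47, 8.57 and 8.63 on the control arrays, 7.35, 7.14 and 7.21 after DBP5 siRNA, 6.12, 6.54 and 6.68 after GLE1 siRNA, and 7.63, 7.63 and 7.76 after IPPK siRNA. The groups did not overlap, with control highest and GLE1 siRNA lowest. HHIP fell to 0.399 ± 0.0296 of control after DBP5 siRNA (SD, n = 3, adjusted p = 7.62e-06), to 0.231 ± 0.0450 after GLE1 siRNA (SD, n = 3, adjusted p = 1.35e-07) and to 0.542 ± 0.0281 after IPPK siRNA (SD, n = 3, adjusted p = 0.000144), with 3 of 3 arrays below all control arrays each time. With normexp correction the ratio after GLE1 siRNA was 0.364, and in the processed values of the authors it was 0.368. Its smallest difference between knock-downs was that of DBP5 against IPPK siRNA (ratio 0.737 ± 0.0546, SD, n = 3, adjusted p = 0.014, 3 of 3 arrays below), which missed the threshold without the second DBP5 siRNA array (log2 difference -0.40, adjusted p = 0.0501) and under the paired test of the methods (0.0903). That test did not call the difference between GLE1 and DBP5 siRNA either (0.136).

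Set side by side, the 3 target genes had different orders over the siRNAs. HHIP was lowest after GLE1 siRNA, GLI1 was lowest after IPPK siRNA, and PTCH1 was low after IPPK siRNA with no call after the other siRNAs. SMO, CDON and GAS1 were higher after DBP5 and IPPK siRNA than on the control arrays, while GLI1, GLI2 and GLI3 fell after GLE1 and IPPK siRNA. After DBP5 siRNA, GLI1 and GLI3 fell too, by calls that the alternatives given above did not all keep.

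**Figure D3:**
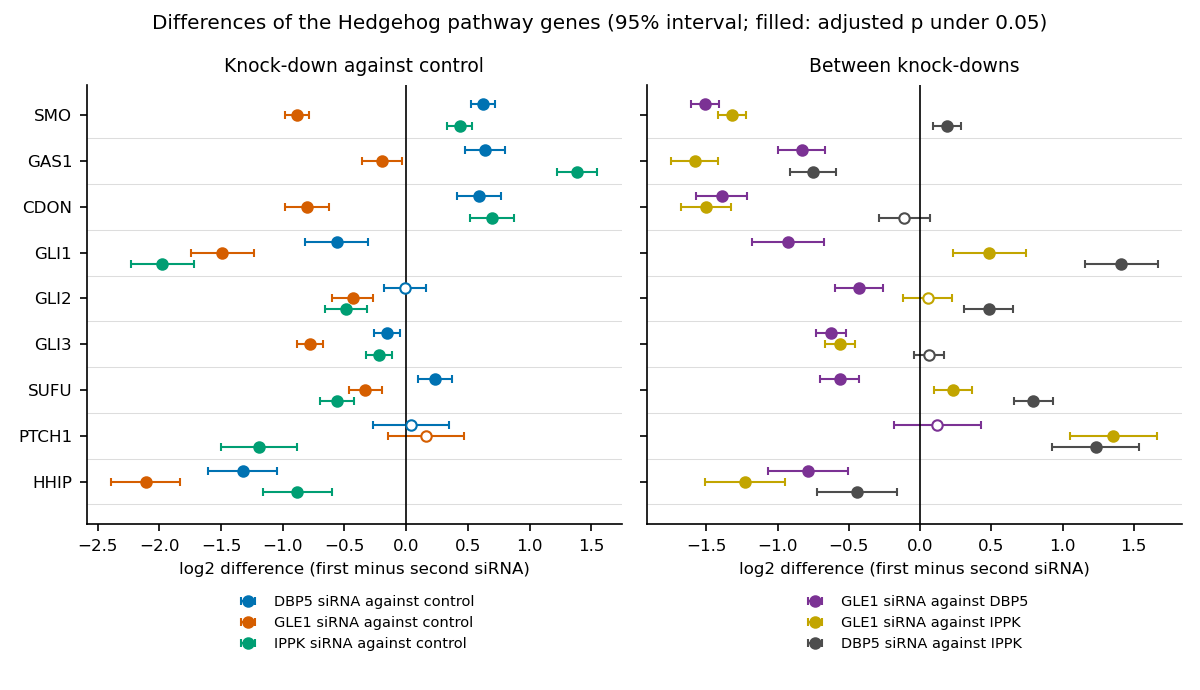
Log2 differences of the 9 genes, each knock-down against control on the left and knock-downs against each other on the right, with 95% intervals and filled symbols where the adjusted p was under 0.05. Against DBP5 siRNA, GLE1 siRNA gave lower values for all genes but PTCH1, whose interval spans 0.

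The knock-downs were also compared directly, which tests whether a gene differed between them. GLE1 against DBP5 siRNA gave 8 of 9 genes lower (28% of all genes) and 0 of 9 higher (26.5% of all genes), a one-sided split unlike that of all genes. The count higher was also 0 at an unadjusted p under 0.05 by limma and by the paired test. SMO and GLI3, which the study picked from these arrays as lower after GLE1 siRNA, are among the 8. PTCH1 was the gene that did not pass (log2 difference 0.12, 95% interval -0.18 to 0.43, adjusted p = 0.5), and that of GLI2 did not pass with the mean of its probes (-0.11, 0.353). The paired test of the methods did not call GLI2 (0.0587), SUFU (0.0509) or HHIP (0.136) in this comparison. GLE1 against IPPK siRNA gave 5 of 9 lower (30.8% of all genes) and 3 of 9 higher (29.4% of all genes). Those lower were the cell surface proteins SMO, CDON, GAS1 and HHIP with GLI3, and those higher were GLI1, PTCH1 and SUFU. The difference of SUFU was lost with normexp correction (log2 difference 0.15, adjusted p = 0.0627), in the processed values of the authors (0.14, 0.0693) and with the mean of its probes (0.13, 0.149). DBP5 against IPPK siRNA gave 2 of 9 lower (25.1% of all genes) and 5 of 9 higher (23.8% of all genes), GLI2 among them without a call by the paired test (0.0595).

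Between GLE1 and IPPK siRNA, SMO was at a ratio of 0.401 ± 0.00920 (SD, n = 3, adjusted p = 4.33e-09, 3 of 3 below), and its log2 difference stayed between -1.37 and -1.23 under the alternatives. Those of GAS1, at a ratio of 0.334 ± 0.0151 (SD, n = 3, adjusted p = 3.16e-08, 3 of 3 below), CDON, at 0.353 ± 0.0309 (SD, n = 3, adjusted p = 8.23e-08, 3 of 3 below), and PTCH1, at 2.56 ± 0.637 (SD, n = 3, adjusted p = 9.8e-06, 3 of 3 above), depended in size on the background. With normexp correction the ratios were 0.506 for GAS1, 0.576 for CDON and 1.49 for PTCH1. In the processed values of the authors they were 0.520, 0.578 and 1.45, and all passed the threshold in both, while the paired test of the methods did not call PTCH1 (0.0545). PTCH1 after DBP5 siRNA was 2.35 ± 0.0405 of that after IPPK siRNA (SD, n = 3, adjusted p = 3.52e-05, 3 of 3 above), 1.45 with normexp correction and 1.43 in the processed values of the authors. CDON after GLE1 siRNA was 0.381 ± 0.0333 of that after DBP5 siRNA (SD, n = 3, adjusted p = 1.98e-07, 3 of 3 below), 0.574 with normexp correction and 0.576 in the processed values of the authors.

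Promoter sequences show whether the target genes carry the letters that GLI proteins bind, since these genes had different orders over the siRNAs. RefSeq promoter windows on GRCh38.p14, from 250 bases before to 50 after a start, were found for 7 of 9 genes, 14 windows in all. No window was found for GLI1 and GLI3. The 9-letter GLI motif GACCACCCA, or TGGGTGGTC on the other strand, was in 83 of 35116 windows of all genes (0.236%) and in 1 of the 14, that of PTCH1 at chr9:95509217-95509516 on the minus strand, 172 bases before the start. Its 7-letter core CCACCCA, or TGGGTGG on the other strand, which lies inside the longer motif, was in 3227 windows of all genes (9.19%) and in 2 of the 14, of GLI2 and PTCH1. The GC box CCCGCC, or GGCGGG on the other strand, was in 15798 windows (45.0%) and in 12 of the 14, which belong to 6 genes. The 14 windows are not independent, since PTCH1, CDON and GLI2 had more than 1 each and some of PTCH1 overlap. Their median GC content was 63.7%, beside 58.7% for all windows, so no excess is read from the GC box count. Of the PTCH1 windows, only the one with the 9-letter motif is printed. The HHIP window, at chr4:144645906-144646205 on the plus strand, is printed beside that of PTCH1 as the other target gene with a window, and capitals mark the 9-letter motif.
PTCH1: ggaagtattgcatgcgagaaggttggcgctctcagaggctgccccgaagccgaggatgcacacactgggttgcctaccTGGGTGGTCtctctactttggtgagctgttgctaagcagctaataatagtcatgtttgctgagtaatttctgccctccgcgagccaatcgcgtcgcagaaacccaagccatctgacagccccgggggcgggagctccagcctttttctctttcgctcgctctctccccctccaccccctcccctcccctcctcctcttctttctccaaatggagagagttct
HHIP: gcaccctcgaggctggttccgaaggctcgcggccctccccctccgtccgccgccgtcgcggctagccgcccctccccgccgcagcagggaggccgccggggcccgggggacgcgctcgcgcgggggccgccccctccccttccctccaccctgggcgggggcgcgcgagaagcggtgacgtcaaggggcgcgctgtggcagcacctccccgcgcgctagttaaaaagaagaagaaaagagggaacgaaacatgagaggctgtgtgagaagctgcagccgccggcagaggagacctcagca

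A match is a run of letters and not a measured binding site, and the arrays carry no measure of binding.

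The wider pathway was read from a list of 62 genes by role, which includes the 9 genes. Of these, 61 had a probe named through RefSeq and 59 were tested. No probe could be named as CSNK1A1 in this way, which does not show that it is absent from the array. EVC2 and FOXL1 had no probe well above background on all 3 arrays of a siRNA. After DBP5 siRNA, 17 of 59 fell and 26 of 59 rose. After GLE1 siRNA, 24 fell and 17 rose, and after IPPK siRNA, 22 fell and 20 rose. The median log2 difference from control of the list was 0.15, -0.04 and -0.03 in that order, beside -0.02, 0.01 and -0.03 for all genes. Read against the shares of all genes (27.5% and 26.8% after DBP5 siRNA, 31.5% and 30.6% after GLE1 siRNA, 28% and 27.3% after IPPK siRNA), the rises after DBP5 siRNA were clearly above the share, while the other counts were near their shares or not far above them. Genes are named below for the comparisons in which they were among the 3 largest rises or falls of their role, and some passed in further comparisons that are not given. Between the knock-downs, 30 of 59 were lower and 8 higher in GLE1 against DBP5 siRNA (28% and 26.5% of all genes), 21 lower and 21 higher in GLE1 against IPPK siRNA (30.8% and 29.4%), and 12 lower and 28 higher in DBP5 against IPPK siRNA (25.1% and 23.8%).

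**Figure D4:**
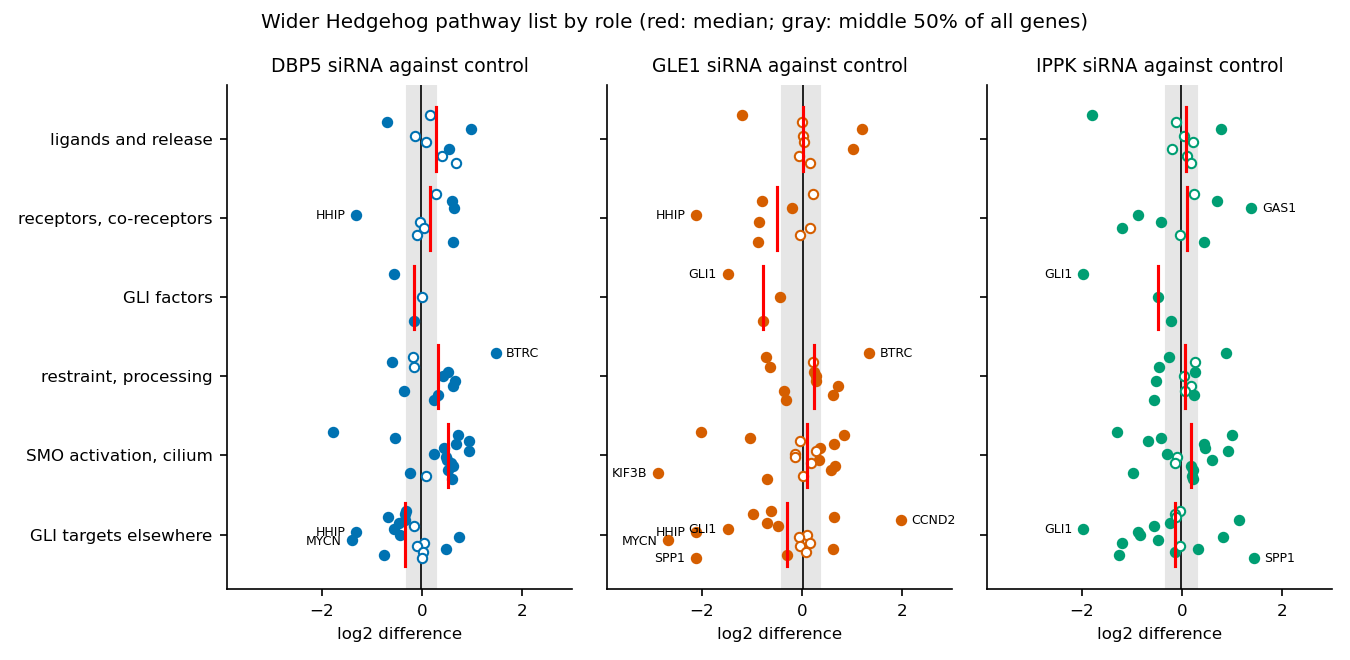
Log2 difference from control of the wider pathway list by role, 1 symbol per gene, filled where the adjusted p was under 0.05. Red lines are medians of a role and the gray band is the middle 50% of all genes. GLI1, PTCH1 and HHIP appear in more than 1 role, and some of the genes described in the text are named where their difference was larger than 1.3.

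Of the 8 genes for ligands and their release, HHAT, DISP1, SCUBE2 and DHH passed in at least 1 comparison with control. SHH measured between 5.33 and 5.88 on 11 arrays and 7.26 on the third DBP5 siRNA array, and its ratio of 1.61 ± 1.36 after DBP5 siRNA did not pass (SD, n = 3, adjusted p = 0.152, 2 of 3 above), though it did without the second DBP5 siRNA array (2.07, adjusted p = 0.0328). IHH passed in no comparison with control, with ratios of 0.909, 1.01 and 1.03 after DBP5, GLE1 and IPPK siRNA. SCUBE1, with ratios of 1.06, 1.02 and 1.17, and SCUBE3, with 1.32, 0.953 and 1.07, passed in none of them in the fit without the slide. With the slide as a block, SCUBE1 passed after IPPK siRNA (adjusted p = 0.00897, log2 differences within slides of 0.25, 0.29 and 0.13) and SCUBE3 after DBP5 siRNA (0.0456, with 0.42, 0.35 and 0.42). SCUBE3 after DBP5 siRNA also passed in the processed values of the authors (0.0346), with the 6 arrays of the comparison alone (0.00311) and without the first GLE1 siRNA array (0.0234). DHH measured 4.70, 5.02 and 4.62 on the control arrays and 5.08, 4.80 and 4.91 after DBP5 siRNA, and was not well above background on any GLE1 or IPPK siRNA array. With each dim array set to the lowest level called well above background on it, DHH was at least 1.78-fold lower after GLE1 siRNA and at least 1.65-fold lower after IPPK siRNA, with 3 of 3 arrays below all control arrays in both. No test was run on these bounds. The test on the measured values, which include the dim arrays, called both (adjusted p = 0.0194 and 0.00238). DHH passed the filter only through the control and DBP5 siRNA arrays, where it was high, so these calls are not separate support for a fall. The call after GLE1 siRNA was lost without the second control array (log2 difference -1.08, adjusted p = 0.0644) and without GLE1 siRNA array 2 (-1.04, 0.068) or 3 (-1.09, 0.0614), and that after IPPK siRNA was lost with normexp correction (-0.14, 0.0803) and in the processed values of the authors (-0.11, 0.137). After GLE1 siRNA those settings gave -0.16 (0.0406) and -0.15 (0.0411), smaller than the bound, so the size of the DHH difference was not settled.

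HHAT attaches the fatty acid that Hedgehog ligands carry at their start. HHAT measured 10.19, 10.23 and 10.48 on the control arrays, 11.26, 11.21 and 11.39 after DBP5 siRNA, 11.45, 11.48 and 11.58 after GLE1 siRNA, and 11.07, 11.07 and 11.09 after IPPK siRNA. All knock-down arrays lay above all control arrays, with ratios of 1.98, 2.31 and 1.71 (adjusted p = 2.26e-06, 2.9e-07 and 1.27e-05). DISP1, which releases the ligand, fell to 0.618 ± 0.0250 of control after DBP5 siRNA (SD, n = 3, adjusted p = 1.16e-05, 3 of 3 below), and its ratios of 0.998 and 0.916 after GLE1 and IPPK siRNA did not pass (adjusted p = 0.981 and 0.155), the second passing in the processed values of the authors (0.0487) and without the third IPPK siRNA array (0.873, adjusted p = 0.0293). SCUBE2, a secreted protein that helps the release, rose to 2.04 ± 0.245 of control after GLE1 siRNA (SD, n = 3, adjusted p = 0.00118, 3 of 3 above), a ratio that was 1.21 with normexp correction and 1.22 in the processed values of the authors. Its rise to 1.45 ± 0.282 after DBP5 siRNA (SD, n = 3, adjusted p = 0.0451, 3 of 3 above) was lost without any one of the control arrays (adjusted p = 0.116, 0.0785 and 0.0814), without DBP5 siRNA array 2 or 3 (0.116 and 0.152), without any one of the GLE1 siRNA arrays (0.0514, 0.0524 and 0.0596), without the second IPPK siRNA array (0.0564) and without the filter on dim probes (0.0673). SCUBE2 was well above background on 1 of 3 IPPK siRNA arrays, and its ratio of 0.871 there did not pass (adjusted p = 0.445).

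Among the other receptor genes, LRP2, a large endocytic receptor that takes up ligand, fell to 0.548 ± 0.0495 of control after GLE1 siRNA (SD, n = 3, adjusted p = 5.16e-06) and to 0.746 ± 0.0542 after IPPK siRNA (SD, n = 3, adjusted p = 0.00129), with 3 of 3 arrays below in both. After DBP5 siRNA its ratio of 0.966 did not pass (adjusted p = 0.669). BOC, another co-receptor, had no call against control with all arrays, with ratios of 1.21, 1.16 and 1.18 after DBP5, GLE1 and IPPK siRNA (adjusted p = 0.0788, 0.151 and 0.118). Without the third control array it passed in the 3 comparisons (1.30, 1.24 and 1.27, adjusted p = 0.0228, 0.0413 and 0.0344), and after DBP5 siRNA also without the first DBP5 siRNA array (1.28, adjusted p = 0.0385). Among the 8 receptor and co-receptor genes, 5 fell and 0 rose after GLE1 siRNA (31.5% and 30.6% of all genes, and 0 rises also at an unadjusted p under 0.05 by limma and by the paired test). SMO, which the study picked from these arrays, is among the 5. After DBP5 siRNA 1 fell and 3 rose (27.5% and 26.8% of all genes) and after IPPK siRNA 3 and 3 (28% and 27.3%), counts too small to set apart from those shares.

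SUFU belongs to the 11 tested genes that restrain or process GLI proteins. BTRC, the F-box protein that marks phosphorylated GLI3 for cutting, measured 7.73, 7.54 and 7.59 on the control arrays, 9.02, 9.12 and 9.14 after DBP5 siRNA, 8.93, 8.96 and 8.99 after GLE1 siRNA, and 8.47, 8.501 and 8.55 after IPPK siRNA. All knock-down arrays were above all control arrays, with ratios of 2.77, 2.53 and 1.85 (adjusted p = 2.2e-08, 1.67e-08 and 5.24e-07). Its relative FBXW11 fell to 0.657 ± 0.120 of control after DBP5 siRNA (SD, n = 3, adjusted p = 0.00107, 3 of 3 below). PRKACA, a catalytic subunit of protein kinase A, which phosphorylates GLI proteins, rose to 1.58 ± 0.105 after DBP5 siRNA (SD, n = 3, adjusted p = 7.76e-06, 3 of 3 above) and fell to 0.698 ± 0.0293 after IPPK siRNA (SD, n = 3, adjusted p = 4.34e-05, 3 of 3 below). PRKACB, another catalytic subunit, rose to 1.55 ± 0.158 after DBP5 siRNA (SD, n = 3, adjusted p = 6.9e-05) and to 1.66 ± 0.0864 after GLE1 siRNA (SD, n = 3, adjusted p = 1.61e-05), with 3 of 3 arrays above in both. A second PRKACB probe gave 1.61 and 4.98, so that the size of the rise after GLE1 siRNA depended on the probe.

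GPR161, a ciliary receptor that raises protein kinase A activity, fell to 0.637 ± 0.0308 of control after GLE1 siRNA (SD, n = 3, adjusted p = 2.3e-05) and to 0.725 ± 0.0481 after IPPK siRNA (SD, n = 3, adjusted p = 0.000357), with 3 of 3 arrays below in both, and a second probe gave 0.425 and 0.720. SPOP and CUL3 form the ligase that degrades full-length GLI proteins. SPOP fell to 0.775 after DBP5 siRNA (adjusted p = 0.011) and to 0.782 after GLE1 siRNA (adjusted p = 0.0113), with 3 of 3 arrays below in both, the second missing the threshold with normexp correction (0.0507). CUL3 fell to 0.605 after GLE1 siRNA (adjusted p = 6.28e-05, 3 of 3 below). STK36, a kinase related to a regulator of the pathway in flies, rose to 1.55 after GLE1 siRNA (adjusted p = 5.89e-05, 3 of 3 above) and to 1.17 after IPPK siRNA (adjusted p = 0.0347, 3 of 3 above). The second of these calls was lost without the first control array (0.128), without IPPK siRNA array 2 (0.117) or 3 (0.0969) and without the filter on dim probes (0.0514). GSK3B, a kinase that adds to the phosphorylation of GLI proteins, rose to 1.20 after IPPK siRNA (adjusted p = 0.0114, 3 of 3 above). Its mean was 12.36 on the control arrays, 12.89 after DBP5 siRNA, 12.61 after GLE1 siRNA and 12.62 after IPPK siRNA, so it was highest after DBP5 siRNA. STK36 averaged 8.16, 8.47, 8.79 and 8.39 in that order.

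Of the 16 tested genes for SMO activation and ciliary transport, 12 rose and 3 fell after DBP5 siRNA (26.8% and 27.5% of all genes), with a median log2 difference of 0.51. After GLE1 siRNA 6 rose and 4 fell (30.6% and 31.5% of all genes), near the shares of all genes, and after IPPK siRNA 9 rose and 5 fell (27.3% and 28%), with medians of 0.11 and 0.19. In GLE1 against DBP5 siRNA, 9 of 16 were lower and 0 higher (28% and 26.5% of all genes), also 0 at an unadjusted p under 0.05 by limma and by the paired test. The cilium is where SMO and the GLI proteins meet, and its upkeep needs the motor and transport proteins of this group.

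KIF3B, a subunit of the kinesin that carries cargo into the cilium, measured 13.34, 13.32 and 13.36 on the control arrays, 13.09, 13.16 and 13.05 after DBP5 siRNA, 10.56, 10.43 and 10.39 after GLE1 siRNA, and 12.38, 12.34 and 12.37 after IPPK siRNA. It fell to 0.136 ± 0.00862 of control after GLE1 siRNA (SD, n = 3, adjusted p = 1.99e-10, 3 of 3 below) and to 0.509 ± 0.00770 after IPPK siRNA (SD, n = 3, adjusted p = 1.3e-07, 3 of 3 below). Its smaller fall to 0.849 ± 0.0308 after DBP5 siRNA (SD, n = 3, adjusted p = 0.00336, 3 of 3 below) missed the threshold with normexp correction (0.0508).

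The beta-arrestins, which help SMO into the cilium, went in opposite directions. ARRB1 rose in the 3 comparisons with control, to ratios of 1.64, 1.80 and 1.99 after DBP5, GLE1 and IPPK siRNA (adjusted p = 2.58e-05, 4.64e-06 and 2.04e-06), and ARRB2 fell in the 3, to 0.691, 0.485 and 0.747 (adjusted p = 2.6e-05, 1.02e-07 and 0.000142), with 3 of 3 arrays on 1 side of all control arrays each time. EVC, a ciliary partner of SMO, rose to 1.91 ± 0.188 of control after DBP5 siRNA (SD, n = 3, adjusted p = 0.000105) and to 1.90 ± 0.156 after IPPK siRNA (SD, n = 3, adjusted p = 0.000111), with 3 of 3 arrays above in both. With normexp correction these ratios were 1.23 and 1.21, and in the processed values of the authors 1.25 and 1.20, all past the threshold. CSNK1G1, a casein kinase that phosphorylates SMO, rose to 1.93 ± 0.165 after DBP5 siRNA (SD, n = 3, adjusted p = 2.13e-06, 3 of 3 above) and fell to 0.628 ± 0.0309 after IPPK siRNA (SD, n = 3, adjusted p = 2.59e-05, 3 of 3 below). After GLE1 siRNA, INPP5E, a phosphatase of ciliary lipids, rose to 1.58 (adjusted p = 6.67e-06, 3 of 3 above) and DYNC2H1, a motor of transport out of the cilium, to 1.55 (adjusted p = 2.25e-06, 3 of 3 above). IFT172, a ciliary transport protein, rose to 1.51 after IPPK siRNA (adjusted p = 1.58e-05, 3 of 3 above). On average, INPP5E measured 10.47 on the control arrays, 11.10 after DBP5 siRNA, 11.13 after GLE1 siRNA and 10.66 after IPPK siRNA. DYNC2H1 averaged 8.83, 9.50, 9.46 and 9.27 in that order, and IFT172 9.17, 9.68, 9.51 and 9.77. The higher means of these genes were thus not particular to 1 siRNA.

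**Figure D5:**
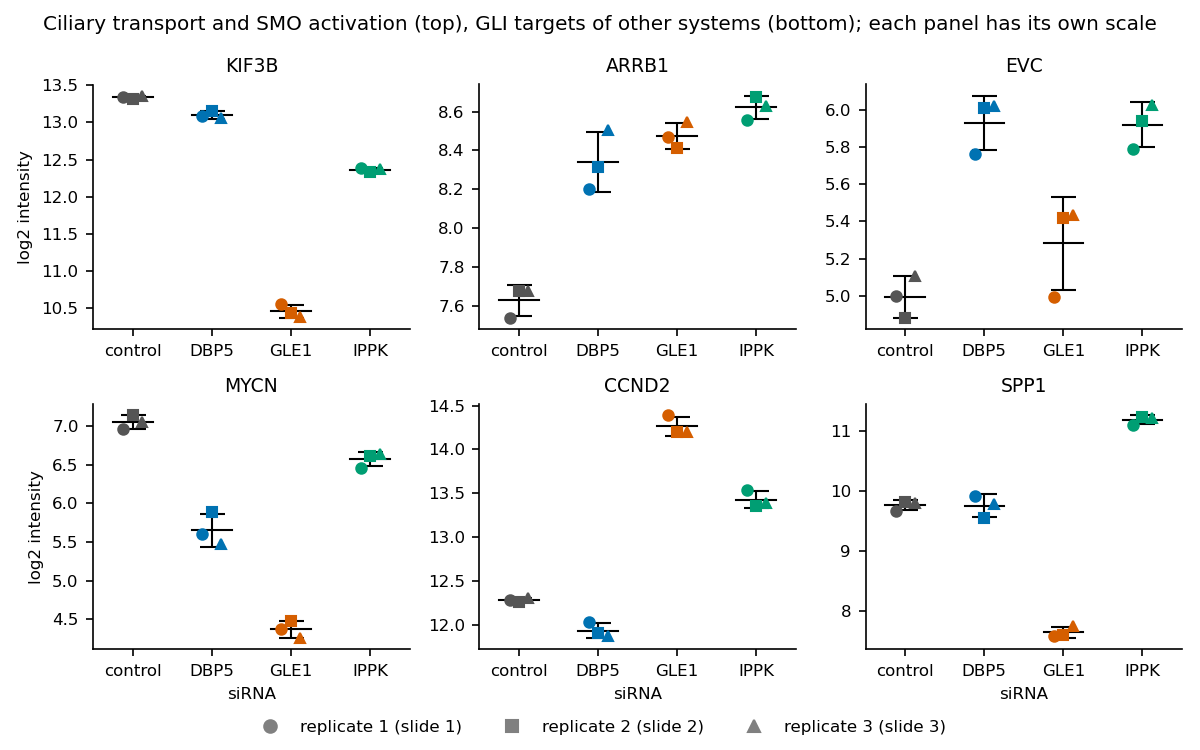
Log2 intensity on each of the 12 arrays for 3 genes of ciliary transport and SMO activation (KIF3B, ARRB1, EVC) and 3 genes known as GLI targets in other systems (MYCN, CCND2, SPP1), with a scale for each panel. Symbols are arrays, marked by slide, and bars are the mean and SD of 3 arrays. SPP1 lies below control after GLE1 siRNA and above it after IPPK siRNA.

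Of the 17 tested genes known as GLI targets in other systems, GLI1, PTCH1 and HHIP included, 10 fell and 2 rose after DBP5 siRNA (27.5% and 26.8% of all genes), 9 fell and 3 rose after GLE1 siRNA (31.5% and 30.6%), and 9 fell and 4 rose after IPPK siRNA (28% and 27.3%). The medians of their log2 differences were -0.34, -0.30 and -0.14. The falls were above the share of all genes in each comparison, and the rises were too few to set apart from it. Whether these genes respond to GLI proteins in U2OS cells was not measured.

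MYCN, which encodes a transcription factor of proliferating precursors, measured 6.96, 7.14 and 7.05 on the control arrays, 5.60, 5.89 and 5.47 after DBP5 siRNA, 4.37, 4.48 and 4.26 after GLE1 siRNA, and 6.46, 6.62 and 6.64 after IPPK siRNA. The groups did not overlap, and the ratios were 0.380, 0.156 and 0.719 (adjusted p = 1.59e-06, 7.99e-09 and 0.00307, 3 of 3 arrays below each time). After GLE1 siRNA the ratio was 0.423 with normexp correction and 0.434 in the processed values of the authors, which gave 0.580 after DBP5 siRNA. MYCN, like HHIP, was lowest after GLE1 siRNA, then DBP5 siRNA, then IPPK siRNA. SNAI1, which encodes a repressor of epithelial genes, fell below control in the 3 comparisons, to ratios of 0.588 for DBP5, 0.814 for GLE1 and 0.416 for IPPK siRNA (adjusted p = 1.91e-06, 0.00134 and 4.67e-08, 3 of 3 below each time), lowest after IPPK siRNA as GLI1 was.

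CCND2, a D-type cyclin, measured 12.28, 12.26 and 12.30 on the control arrays, 12.03, 11.90 and 11.87 after DBP5 siRNA, 14.39, 14.20 and 14.20 after GLE1 siRNA, and 13.54, 13.36 and 13.39 after IPPK siRNA. It rose to 3.94 ± 0.305 of control after GLE1 siRNA (SD, n = 3, adjusted p = 4.26e-09, 3 of 3 above) and to 2.21 ± 0.149 after IPPK siRNA (SD, n = 3, adjusted p = 3.32e-07, 3 of 3 above), against the direction of GLI1. CCND1 rose to 1.56 after GLE1 siRNA (adjusted p = 1.6e-05, 3 of 3 above) and fell to 0.625 after DBP5 siRNA (adjusted p = 1.49e-05, 3 of 3 below). SPP1, a bone matrix protein, measured 9.67, 9.82 and 9.80 on the control arrays, 9.93, 9.54 and 9.79 after DBP5 siRNA, 7.57, 7.59 and 7.74 after GLE1 siRNA, and 11.11, 11.24 and 11.23 after IPPK siRNA. It fell to 0.229 ± 0.0149 of control after GLE1 siRNA (SD, n = 3, adjusted p = 1.83e-08, 3 of 3 below) and rose to 2.70 ± 0.135 after IPPK siRNA (SD, n = 3, adjusted p = 5.18e-07, 3 of 3 above). JAG2, a Notch ligand, rose to 1.66 after DBP5 siRNA (adjusted p = 0.00181) and to 1.77 after IPPK siRNA (adjusted p = 0.000818), with 3 of 3 arrays above in both. PTHLH, a hormone-like signal of cartilage growth, rose to 1.39 after DBP5 siRNA (adjusted p = 0.000379) and to 1.53 after GLE1 siRNA (adjusted p = 4e-05), with 3 of 3 arrays above in both.

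For each of the 9 genes, the genes with the most similar pattern were found by Pearson's r over the 12 arrays, among the 18418 other genes well above background on all arrays. They included RAB24 and STX3 for GLI1, FHOD1, OR4N4 and FXYD6 for GLI2, and ODAD4, AURKA and MTHFD1 for GLI3. For SMO they were FBXL16, RNF213 and RHPN1, for PTCH1 CDK19, GPATCH4 and SH3GLB1, and for SUFU PAAF1, CSRNP2 and H2AJ. For HHIP they were GALNT6, MMS22L and a probe without a gene symbol, for GAS1 NUDCD1, MYRIP and a probe named by transcript, and for CDON MBOAT1, KDM4D and another such probe. The highest r was 0.997 (SMO with FBXL16) and the lowest given here 0.968 (GLI2 with FXYD6). The 12 arrays form 4 groups and such an r follows in part the 4 group means, so it is a description. After the group means were removed, the r ranged from -0.36 (RNF213 with SMO) to 0.92 (OR4N4 with GLI2), with 0.42 for FBXL16 with SMO and 0.82 for PAAF1 with SUFU.

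The cell line was checked against markers. Of 8 osteoblast and mesenchyme genes, 7 were well above background on all 12 arrays, COL1A2 on 4. VIM had the brightest probe of them, and the summed level of the list, as a log2 group mean, was 17.94 on the control arrays, 18.23 after DBP5 siRNA, 18.13 after GLE1 siRNA and 17.96 after IPPK siRNA. COL1A1 fell to 0.252 and RUNX2 to 0.615 of control after IPPK siRNA (adjusted p = 1.84e-08 and 0.00035), RUNX2 not with the mean of its probes (0.804, adjusted p = 0.357). COL5A2 went the other way, rising to 1.35, 3.22 and 1.61 after DBP5, GLE1 and IPPK siRNA (adjusted p = 0.000538, 1.58e-08 and 1.87e-05). Of 5 epithelial genes, KRT5 was well above background on 0 arrays and CDH1 on 8. The epithelial list, in which the probes of KRT14 and CLDN4 were equally bright on the control arrays (11.14 both), KRT14 was brighter after DBP5 and IPPK siRNA and CLDN4 after GLE1 siRNA, had a summed log2 level of 12.34, 12.36 and 12.37 on the control arrays, 12.06, 12.24 and 12.38 after DBP5 siRNA, 14.65, 14.70 and 14.63 after GLE1 siRNA, and 10.95, 11.38 and 11.47 after IPPK siRNA. It was highest on the GLE1 siRNA arrays and lowest on the IPPK siRNA arrays, and its part in the differences of the Hedgehog genes was not tested. CLDN4 rose to 9.51 of control after GLE1 siRNA (adjusted p = 1.76e-09) and fell to 0.202 after IPPK siRNA (adjusted p = 2.67e-08). The list did not move together. EPCAM did not rise after GLE1 siRNA (ratio 0.735, adjusted p = 0.116, a call of lower with the 6 arrays alone at 0.0308 and without the first IPPK siRNA array at 0.00774) and fell to 0.528 after IPPK siRNA (0.00547). CDH1 was well above background on 0 control arrays and on 3, 3 and 2 arrays after DBP5, GLE1 and IPPK siRNA. With each control array set to the lowest level called well above background on it, CDH1 was at least 8.10-fold higher after GLE1 siRNA and at least 1.58-fold higher after DBP5 siRNA, with 3 of 3 arrays above in both. The test on the measured values called it higher in the 3 comparisons (adjusted p = 0.00177, 1.16e-07 and 0.000196), the first not with normexp correction (0.0513). CDH1 passed the filter only through the DBP5 and GLE1 siRNA arrays, where it was higher, so these calls are not separate support for a rise. The ratios were smaller than the bounds with normexp correction (1.14 after DBP5 and 2.23 after GLE1 siRNA) and in the processed values of the authors (1.16 and 2.24), so the size of the rise was not settled. CDH1 and CLDN4 thus both rose after GLE1 siRNA, while after IPPK siRNA they went apart. KRT14 rose to 1.68 after GLE1 siRNA (adjusted p = 0.000611) and fell to 0.707 after IPPK siRNA (0.00916).

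Of 5 leukocyte genes, LYZ had no probe named through RefSeq. Of the other 4, 2 were well above background on all 12 arrays, and CD68 had the brightest probe. The summed log2 levels were 9.97, 10.18, 10.15 and 9.76 after control, DBP5, GLE1 and IPPK siRNA. CD68 rose to 1.18 after DBP5 siRNA (adjusted p = 0.012) and fell to 0.838 after IPPK siRNA (0.00828). The marker changes given here are not all that passed. Of 3 endothelial genes, 1 was well above background on all arrays, CDH5, which had the brightest probe, with summed levels of 7.66, 7.33, 7.85 and 7.21 in the same order. CDH5 passed in no comparison with control, apart from IPPK siRNA with normexp correction (0.0422) and in the processed values of the authors (0.0484). TEK fell to 0.651 of control after DBP5 siRNA (adjusted p = 0.00886, not in the processed values of the authors, 0.0558) and rose to 1.76 after GLE1 siRNA (0.00142). After IPPK siRNA TEK was well above background on 1 of 3 arrays and at least 2.76-fold below control by the same kind of bound. Its ratio was 0.721 under normexp correction (adjusted p = 8.88e-05) and 0.736 in the processed values of the authors (0.000189). These differences were smaller than the bound, so the size of the fall of TEK was not settled. Of the nuclear-retained RNAs, NEAT1 had no probe named through RefSeq. KCNQ1OT1, the one with the brighter probe of the other two, rose in the 3 comparisons, to ratios of 1.56 for DBP5, 1.80 for GLE1 and 1.16 for IPPK siRNA (adjusted p = 2.2e-05, 1.78e-06 and 0.0212). The last of these was lost without the first (0.0729) or second control array (0.05) and without IPPK siRNA array 2 (0.0847) or 3 (0.0513). MALAT1 fell to 0.474 after IPPK siRNA (adjusted p = 0.0035) and did not pass after DBP5 or GLE1 siRNA, with ratios of 0.692 and 0.798 (adjusted p = 0.0957 and 0.285), the first passing with the 6 arrays of the comparison alone (0.00716) and without the second GLE1 siRNA array (0.0326). The summed log2 level of the pair was 12.43, 12.48 and 12.52 on the control arrays, 13.09, 12.92 and 13.18 after DBP5 siRNA, 13.25, 13.27 and 13.28 after GLE1 siRNA, and 12.58, 12.71 and 12.63 after IPPK siRNA. All knock-down arrays lay above all control arrays, and the part of nuclear RNA in the values of the Hedgehog genes was not tested.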

How the data were processed

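Cytoplasmic RNA was measured on 12 arrays, 3 for each of 4 siRNAs. The authors deposited, for each array, the intensity of each spot after local background subtraction by Feature Extraction, with the median spot and background intensity. The authors also deposited a table of log2 values, normalized, by the methods, with LOESS regression. Here outlier spots were left out, the spots of a probe were averaged as log2 of the background-subtracted intensity, and cyclic loess was applied between arrays. A probe was well above background on an array where over 50% of its spots were. Probes were named through RefSeq accessions, used for names alone because the array design is on hg19 and the RefSeq tables on GRCh38.p14. The brightest probe stood for a gene.

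Differences were tested with limma 3.58.1 in R 4.3.3, with a mean per siRNA and all 12 arrays in a single fit. Tests were two-sided at 0.05 after Benjamini-Hochberg adjustment within each comparison, and the step was tested on simulated data. Tables and figures were made in Python 3.11.15 with pandas 2.3.3, scipy 1.17.1 and matplotlib 3.10.9. The 9 members, the wider list, the markers and the rule for named genes were chosen with earlier results of these data known. By that rule the named genes were taken from the 9 members, the siRNA targets, the markers, all ligands and co-receptors, and for each role and comparison with control up to 3 genes with the largest rise and up to 3 with the largest fall past the threshold, with genes most similar to each member. The fall of CCND1, the lack of a call for other named genes and the array of SHH that stood apart were singled out after their values were seen. For DHH, the bound sets each array of a dim group to the lowest level at which any probe was well above background on that array, or to the measured value where that was higher.

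Replicate numbers were checked as pairs through deviations from the group means. The 18 pairs of arrays with the same number had a correlation across genes of 0.318 to 0.513, and the 36 other pairs one of -0.285 to -0.0496, so a fit with the slide as a block was run as an alternative. Quantile normalization and 75th percentile scaling, normexp correction (offset 50), the authors' processed values, no filter, a stricter filter that asks for all 12 arrays, averaging over the probes of a gene, a fit over single probes, the 6 arrays compared alone, each array left out in turn, Dunnett's test and the t-test of the methods, with arrays paired by number, were further alternatives. Real-time PCR, flow cytometry and imaging were not analysed.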

Additional observations from a re-analysis of the deposited data

How the results depend on the processing

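Over the alternatives, the differences of the 9 genes in the 6 comparisons gave 1323 values. Of these, 1268 kept their direction and their side of the threshold, 42 kept the direction and no longer passed, 1 newly passed and 12 turned their sign. All 12 belong to differences near 0 that passed the threshold neither before nor after. The cause was not tested. Many of the 1323 values could not turn their sign, since the alternative changed the test or its spread and not the difference. Among the 648 values with 1 array left out, this holds where that array was outside the comparison. The stricter filter kept all 9 genes, and the fit over single probes counted the brightest probe alone. The opposite direction of the second SUFU probe is therefore not among these counts.

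For GLI2, DBP5 siRNA against control, the log2 difference was 0.016 with normexp correction and 0.028 with the authors' processed table, and with 1 array left out it ranged from -0.067 to 0.048. For PTCH1 it was -0.044 in DBP5 siRNA against control with scaling to the 75th percentile, and -0.078 in GLE1 against DBP5 siRNA with the mean of the probes. With 1 array left out, PTCH1 ranged from -0.0070 to 0.070 in DBP5 siRNA against control, from -0.025 to 0.31 in GLE1 siRNA against control and from -0.065 to 0.28 in GLE1 against DBP5 siRNA. For CDON, DBP5 against IPPK siRNA, it was 0.0041 with normexp correction and 0.0051 with the authors' processed table.

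The number of the 9 genes that passed in DBP5 siRNA against control was 4 under the methods' t-test with Benjamini-Hochberg adjustment, in place of 7, and in GLE1 against DBP5 siRNA it was 5 in place of 8. This test estimates the spread from 3 pairs of arrays for each gene alone. The other counts stayed within 1.5 times. With 1 array left out they ranged from 6 to 7 in DBP5 siRNA against control, 7 to 8 in GLE1 siRNA against control and 6 to 7 in DBP5 against IPPK siRNA, and were 9, 8 and 8 in the other comparisons. With the slide as a replicate block the counts were 7, 8, 9, 8, 8 and 7, as without it, and no call of the 9 genes changed. The counts over the wider list ranged from 38 to 44 under the alternatives run for it.

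For the 57 differences from control that passed in genes named from the wider list, 1172 of 1193 values under the alternatives kept their call, 21 no longer passed and 0 turned their sign. Here too, many alternatives left the difference itself unchanged. These counts do not cover named genes without a call, some of which passed under an alternative. With the slide as a block, SCUBE1 and PRKACB after IPPK siRNA (adjusted p = 0.00897 and 0.0495), SCUBE3 after DBP5 siRNA (0.0456) and EVC after GLE1 siRNA (0.0181) newly passed, as did the markers PTPRC after IPPK siRNA (0.00649) and PECAM1 after GLE1 siRNA (0.0227). Signal over background limits the dim probes: normexp correction and the processed values of the authors gave smaller differences for PTCH1, HHIP, GAS1 and CDON. The number of arrays, 3 per siRNA, limits the small differences, such as that of GAS1 after GLE1 siRNA, which Dunnett's test did not call (0.062).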
